A study of Mus musculus with 8 samples.

Results

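The genes described here encode a ligand, its antagonists, receptors, intracellular effectors and a nuclear repressor of the Nodal and Activin branch of TGF-β signalling. They are Nodal, Lefty1, Lefty2, Tdgf1, Acvr1b, Acvr2b, Smad2, Smad3 and Skil, and make up 9 of the 55335 genes in the counts. The 9 were chosen by name for their roles, with earlier results of these data known. Nodal, a secreted ligand, binds an Activin receptor complex together with the co-receptor encoded by Tdgf1, also called Cripto. The receptor phosphorylates SMAD2 and SMAD3, which enter the nucleus with SMAD4 and act on target genes. Lefty1 and Lefty2 encode secreted antagonists of Nodal that are themselves targets of the pathway, which makes them known readouts of Nodal signalling in mouse embryonic stem cells (ESCs) and early embryos. SKIL (SnoN) is a nuclear repressor of SMAD-dependent transcription.

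RNA-seq was performed on E14 ESCs, an established mouse ESC line, grown on gelatin in a medium with LIF and the kinase inhibitors CHIR99021 and PD0325901. All 4 groups received a lentiviral GV248 vector and puromycin selection, and each group had 2 biological replicates. The control carried a scramble shRNA, and the other groups carried shRNA against Sox2 (Sox2-KD), Hnrnpk (labelled hnRNPK-KD) or Cdk9 (Cdk9-KD). Which of the shRNAs made for a gene each library received is not given in the sources used here.

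The 8 libraries held between 16709201 and 17719366 counts, and 16504 genes, all 9 described here among them, passed the filter on low counts. Levels are given as CPM, the count of a gene relative to the TMM-scaled total of its library. A gene was called different at an adjusted p under 0.05 and an absolute log2 fold change (log2FC) over 0.6, from edgeR's quasi-likelihood test. Sox2 was at 412 and 530 CPM in control and at 320 and 284 CPM in Sox2-KD (log2FC -0.64, adjusted p = 0.0479 from edgeR). Cdk9 was at 109 and 129 CPM in control and at 73.1 and 53.2 CPM in Cdk9-KD (log2FC -0.91, adjusted p = 0.0985). Hnrnpk was at 1094 and 1131 CPM in control and at 697 and 1144 CPM in the hnRNPK-KD-labelled libraries, so that the targeted mRNA was lower in replicate 1 alone. The hnRNPK-KD-labelled libraries are therefore given separately wherever they differ. All 10 ESC markers examined, Pou5f1 and Nanog among them, were present in every library. Their summed level was 7610 and 7536 CPM in control and 6413 and 6967 CPM in Sox2-KD. It was 7760 and 7508 CPM in the hnRNPK-KD-labelled libraries and 8907 and 7748 CPM in Cdk9-KD. In Sox2-KD, 5 of the 10, Pou5f1 and Nanog among them, lay below both controls and 0 above. Of all genes tested, 53.3% lay outside the range of the controls there.

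Lefty1 and Lefty2 are a pair of neighbouring, closely related genes, so whether reads can tell them apart bears on each of their values. Both lie on the + strand of chromosome 1 (GRCm38, the assembly that mm10 names), and both have 4 exons in the transcripts compared. Their coding sequences are 1104 bases long each and were identical at 1014 positions (91.8%).

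The longest run of bases shared by both coding sequences was 140, starting at coding base 493 of each, which is shorter than the 150 bases of a read. None of the 1471 windows of 150 bases along the Lefty1 transcript, and none of the 2324 along the Lefty2 transcript, occurred in another annotated gene. Of windows of 50 bases, 281 of 1571 in Lefty1 (17.89%) occurred in Lefty2 too, so that trimmed reads could be shared. Nodal, Acvr1b, Acvr2b, Smad2, Smad3 and Skil shared no window of either length with another gene. Tdgf1 shared 5 of 1783 windows of 150 bases and 236 of 1883 windows of 50 bases with its pseudogene Tdgf1-ps1, which was counted 225 to 512 times in a library against 7489 to 15492 counts for Tdgf1. How reads that match several genes were treated is not stated, so the Lefty1, Lefty2 and Tdgf1 counts carry that uncertainty.

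The 9 genes spanned a wide range of levels in control E14 ESCs when expressed per kilobase of exon, the scale on which genes can be compared. The co-receptor gene Tdgf1 was highest, at 233 ± 98.4 CPM per kilobase (SD, n = 2), rank 151 among the genes tested. The type I receptor gene Acvr1b (24.1 ± 1.19 CPM per kilobase) and the ligand gene Nodal (23.6 ± 1.99) followed, and their control values overlapped. Smad2 (9.74 ± 0.064) and Lefty2 (9.28 ± 2.95) came next, then Acvr2b (6.77 ± 1.24) and Skil (6.51 ± 1.38), and within each of these pairs, and between Lefty2 and Acvr2b, the control values overlapped too. Smad3 was at 2.72 ± 0.475 CPM per kilobase, and Lefty1 was lowest at 0.997 ± 0.719, rank 12020 among the genes tested. The steps from Tdgf1 to Acvr1b, from Nodal to Smad2 and from Skil to Smad3 held in all 8 libraries. The order of Smad2 and Lefty2 did not: Smad2 was the higher of the pair in 1 of 8 libraries, control replicate 2.

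**Figure D1:**
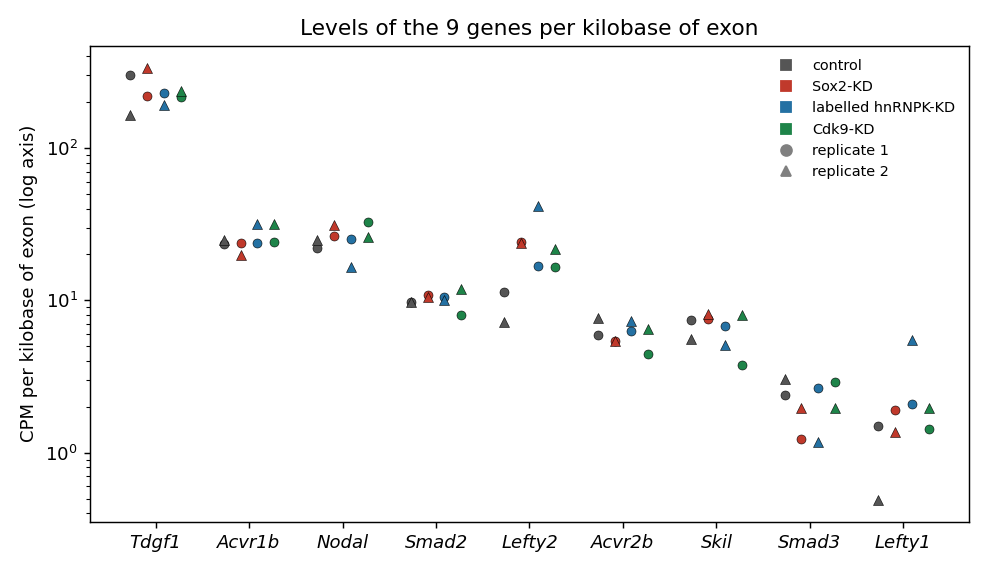
Level of each of the 9 genes in CPM per kilobase of exon on a log axis, with 1 point per library, coloured by group and shaped by replicate, in the order of the control means. Tdgf1 lies above all others in every library, Lefty1 lies at the bottom in 6 of 8 libraries when set against Smad3, and the spread between libraries is widest for the Lefty genes.

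Each knockdown was then set against the control libraries to ask whether the pathway's genes differed with shRNA against Sox2, Hnrnpk or Cdk9. The largest log2FC of the 9 was that of Lefty2 in Sox2-KD and Cdk9-KD, and that of Lefty1 in the hnRNPK-KD-labelled libraries. Lefty2 was at 2.60 times its control level in Sox2-KD, 3.14 times in the hnRNPK-KD-labelled libraries and 2.05 times in Cdk9-KD. Every one of these 6 libraries lay above both control libraries for Lefty2. Lefty1, counted far less often, was at 1.64, 3.78 and 1.69 times its control level in the same order. It overlapped with control in Sox2-KD and Cdk9-KD. The ligand, co-receptor, receptor, SMAD and Skil genes all had a log2FC between -0.77 and 0.33 in these comparisons. None of the 9 genes passed the test in any of the 3, so the values below are differences that did not reach the threshold. In these bulk samples, a change in the share of a cell type and a change in RNA per cell cannot be told apart. In Sox2-KD, 0 of 9 were called, where 4.32% of all genes tested were, and 1 of 9 (Lefty2) had an unadjusted p under 0.05, where 19.3% of all genes did. In the hnRNPK-KD-labelled libraries, 0 of 9 were called against 0% of all genes, and 2 of 9 (Lefty1 and Lefty2) had an unadjusted p under 0.05 against 8.03%. In Cdk9-KD, 0 of 9 were called against 0.139% of all genes, and 1 of 9 (Lefty2) had an unadjusted p under 0.05 against 10.4%. With DESeq2 and with edgeR's exact test, Lefty2 was called in Sox2-KD and in the hnRNPK-KD-labelled libraries, and no gene of the 9 was called in Cdk9-KD.

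The 3 comparisons use the same 2 control libraries, so that a control library that is low or high in a gene moves all of them together. As a group, the 9 genes had a median log2FC of 0.25 in Sox2-KD, 0.011 in the hnRNPK-KD-labelled libraries and 0.026 in Cdk9-KD, beside medians of 0.021, 0.018 and 0.019 over all genes tested. Groups that did not overlap were common among all genes: both libraries lay outside the range of the control pair for 6 of the 9 genes in Sox2-KD (53.3% of all genes tested), for 3 of 9 in the hnRNPK-KD-labelled libraries (39.1%) and for 2 of 9 in Cdk9-KD (39.2%).

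**Figure D2:**
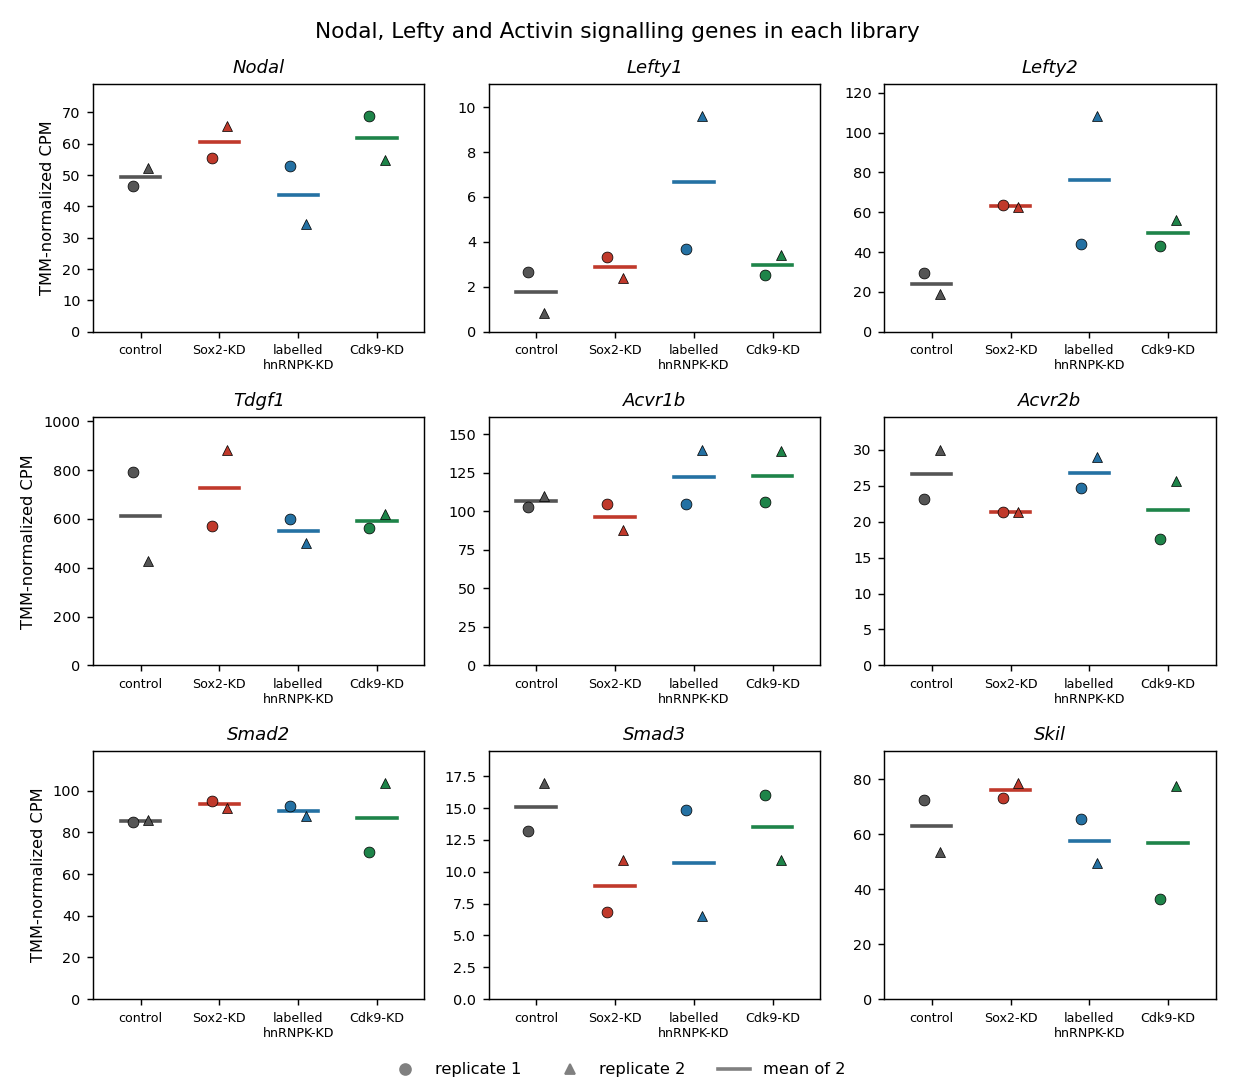
TMM-normalized CPM of each gene in each library, 1 panel per gene with its own axis from 0. Circles are replicate 1, triangles replicate 2 and bars the mean of 2. All 6 knockdown libraries lie above both controls for Lefty2, and replicate 2 of the hnRNPK-KD-labelled libraries is the highest library for Lefty1 (9.60 CPM) and Lefty2 (108 CPM) and the lowest for Nodal (34.4 CPM) and Smad3 (6.52 CPM).

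Lefty2 was counted 527 and 328 times in the control libraries, 1154 and 1096 times in Sox2-KD, 751 and 1860 times in the hnRNPK-KD-labelled libraries and 734 and 953 times in Cdk9-KD. As levels these were 29.7 and 18.8 CPM in control, 63.4 and 62.5 CPM in Sox2-KD, 44.0 and 108 CPM in the hnRNPK-KD-labelled libraries, and 42.9 and 56.4 CPM in Cdk9-KD. The Sox2-KD replicates were nearly alike, while those labelled hnRNPK-KD lay far apart. The log2FC was 1.38 in Sox2-KD (standard error 0.36, 95% interval 0.58 to 2.17, adjusted p = 0.0573 in edgeR's quasi-likelihood fit). It was 1.65 in the hnRNPK-KD-labelled libraries (standard error 0.36, 95% interval 0.85 to 2.45, adjusted p = 0.321). In Cdk9-KD it was 1.03 (standard error 0.36, 95% interval 0.24 to 1.82, adjusted p = 0.358). The adjusted p is larger beside the larger difference because fewer genes had small p-values in that comparison.

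The Lefty2 value in Sox2-KD lay close to the threshold, and 6 of the 17 alternatives put it past it. Its adjusted p ranged from 0.000841 with DESeq2 to 0.314 without control replicate 2, and was 0.00976 without replicate 2 of the hnRNPK-KD-labelled libraries. Leaving out control replicate 2 gave a log2FC of 1.08, and leaving out control replicate 1 gave 1.73. In the hnRNPK-KD-labelled libraries, the log2FC was 2.15 without replicate 1 and 0.84 without replicate 2. Without replicate 1, the library that remains is the one whose Hnrnpk mRNA was not lower. In Cdk9-KD, the log2FC of Lefty2 ranged from 0.71 to 1.36 as single libraries were left out, with a lowest adjusted p of 0.0766 over all alternatives.

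**Figure D3:**
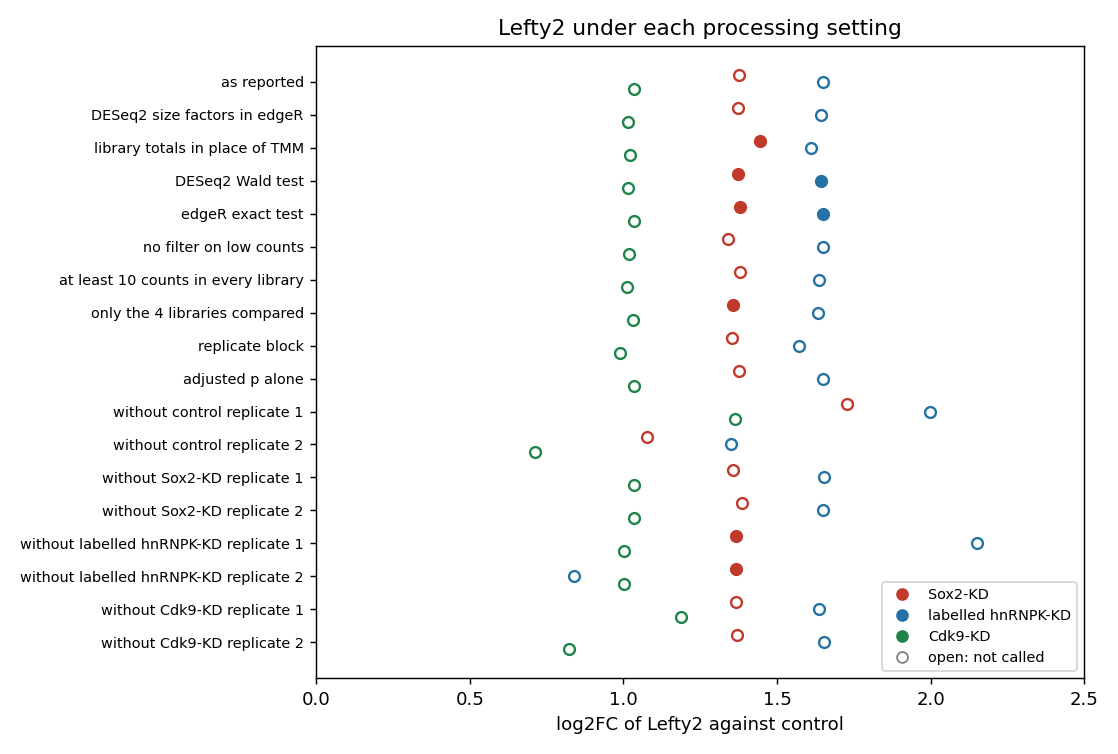
log2FC of Lefty2 against control (horizontal axis) under each processing setting (vertical axis), coloured by knockdown and filled where the gene was called (adjusted p under 0.05 and absolute log2FC over 0.6). Every value lies above 0, between 0.71 and 2.15, and filled points are found for Sox2-KD in 6 settings and for the hnRNPK-KD-labelled libraries in 2.

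Lefty1, the other antagonist gene, was counted far less often. It had 47 and 15 counts in control, 61 and 42 in Sox2-KD, 63 and 165 in the hnRNPK-KD-labelled libraries, and 43 and 58 in Cdk9-KD. As levels these were 2.65 and 0.859 CPM in control, 3.35 and 2.40 CPM in Sox2-KD, 3.69 and 9.60 CPM in the hnRNPK-KD-labelled libraries, and 2.51 and 3.43 CPM in Cdk9-KD. Only the hnRNPK-KD-labelled libraries lay above both controls, since control replicate 1 was inside the Sox2-KD and Cdk9-KD ranges. The log2FC was 0.71 in Sox2-KD (95% interval -0.55 to 1.97, adjusted p = 0.549 from edgeR), 1.92 in the hnRNPK-KD-labelled libraries (95% interval 0.68 to 3.16, adjusted p = 0.457) and 0.76 in Cdk9-KD (95% interval -0.50 to 2.02, adjusted p = 0.696). With so few counts the controls alone moved the Sox2-KD value from 0.11 without control replicate 2 to 1.72 without control replicate 1. In the hnRNPK-KD-labelled libraries the log2FC was 2.44 without replicate 1. It was 1.05 without replicate 2, the library whose Hnrnpk mRNA was not lower. Lefty2 was counted between 11.2 and 26.1 times as often as Lefty1 in a library.

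Nodal, the ligand that both Lefty proteins oppose, lies at chr10:61417972-61425338 on the + strand. It was at 46.4 and 52.3 CPM in control, 55.5 and 65.7 CPM in Sox2-KD, 53.0 and 34.4 CPM in the hnRNPK-KD-labelled libraries, and 68.8 and 54.9 CPM in Cdk9-KD. The Sox2-KD and Cdk9-KD libraries lay above both controls, and the hnRNPK-KD-labelled libraries lay on either side of them. The log2FC was 0.30 in Sox2-KD (95% interval -0.18 to 0.77), -0.18 in the hnRNPK-KD-labelled libraries (95% interval -0.65 to 0.30) and 0.33 in Cdk9-KD (95% interval -0.15 to 0.80), with adjusted p of 0.499, 0.907 and 0.646 from edgeR. All 3 intervals include 0. Set side by side per kilobase, the level of Lefty2 relative to that of Nodal was 0.513 and 0.288 in control, 0.916 and 0.764 in Sox2-KD, 0.667 and 2.53 in the hnRNPK-KD-labelled libraries, and 0.500 and 0.823 in Cdk9-KD. Only in replicate 2 of the hnRNPK-KD-labelled libraries was the antagonist transcript above the ligand transcript on this scale.

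Tdgf1, the co-receptor gene, lies at chr9:110939603-110946158 on the − strand and is a widely used marker of undifferentiated ESCs. Its level was 794 and 429 CPM in control, 571 and 884 CPM in Sox2-KD, 599 and 499 CPM in the hnRNPK-KD-labelled libraries, and 563 and 619 CPM in Cdk9-KD. The control pair enclosed both libraries of each other group except Sox2-KD replicate 2, and all groups overlapped with control. The log2FC was 0.25 (95% interval -0.35 to 0.85), -0.15 (95% interval -0.76 to 0.45) and -0.050 (95% interval -0.65 to 0.55) in the same order of knockdowns. Its sign against control turned in all 3 comparisons as single libraries were left out.

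Acvr1b encodes ALK4, the type I receptor kinase used by Nodal and Activin, and Acvr2b one of the type II receptors that activate it. Acvr1b (chr15:101174067-101213684, + strand) was at 103 and 110 CPM in control, 105 and 87.9 CPM in Sox2-KD, 105 and 140 CPM in the hnRNPK-KD-labelled libraries, and 106 and 139 CPM in Cdk9-KD. Each knockdown overlapped with control, and the log2FC was -0.14, 0.20 and 0.21, with 95% intervals reaching from -0.56 at the lowest to 0.62 at the highest. Acvr2b (chr9:119402118-119434995, + strand) was at 23.1 and 30.0 CPM in control, 21.4 and 21.3 CPM in Sox2-KD, 24.6 and 28.9 CPM in the hnRNPK-KD-labelled libraries, and 17.6 and 25.6 CPM in Cdk9-KD. The Sox2-KD libraries lay just below the lower control library, with a log2FC of -0.32 (95% interval -0.81 to 0.18, adjusted p = 0.49 from edgeR), and the other groups overlapped with control. An intronic miRNA gene, Mir6962, overlaps Acvr1b and an antisense gene, Gm47320, overlaps Acvr2b, but neither shares an exon with it, and they held at most 3 counts and 1 count in a library.

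Smad2 and Smad3 encode the effectors that the receptors phosphorylate. Smad2, on chromosome 18, was the steadiest gene in control, at 85.1 and 85.9 CPM. It was at 95.2 and 91.8 CPM in Sox2-KD, 92.8 and 88.1 CPM in the hnRNPK-KD-labelled libraries, and 70.6 and 104 CPM in Cdk9-KD, where the replicates enclosed the controls; the other knockdown libraries lay slightly above both. The log2FC was 0.13 (95% interval -0.26 to 0.52), 0.080 (95% interval -0.31 to 0.47) and 0.026 (95% interval -0.37 to 0.42). The intervals of Smad2 were the narrowest of the 9 genes in all 3 comparisons.

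Smad3 (chr9:63646767-63757994, − strand) was expressed at a lower level and varied more. It had 13.2 and 17.0 CPM in control, 6.81 and 11.0 CPM in Sox2-KD, 14.8 and 6.52 CPM in the hnRNPK-KD-labelled libraries, and 16.1 and 10.9 CPM in Cdk9-KD. Both Sox2-KD libraries lay below both controls, and the other groups overlapped with control. The log2FC was -0.77 in Sox2-KD (standard error 0.38, 95% interval -1.61 to 0.081, adjusted p = 0.313 from edgeR), -0.50 in the hnRNPK-KD-labelled libraries (adjusted p = 0.818) and -0.16 in Cdk9-KD (adjusted p = 0.93). The Sox2-KD value stayed below 0 in all 17 alternatives, from -1.15 to -0.47, and passed the threshold in none of them.

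Skil (chr3:31095058-31122577, + strand), the repressor gene, was at 72.5 and 53.7 CPM in control, 73.4 and 78.6 CPM in Sox2-KD, 65.7 and 49.7 CPM in the hnRNPK-KD-labelled libraries, and 36.4 and 77.5 CPM in Cdk9-KD. The Sox2-KD pair lay above the controls by a small margin, and the Cdk9-KD replicates lay on either side of all other libraries but Sox2-KD replicate 2. The log2FC was 0.27 (95% interval -0.39 to 0.92), -0.13 (95% interval -0.79 to 0.53) and -0.15 (95% interval -0.81 to 0.51), with adjusted p of 0.678, 0.958 and 0.916 from edgeR.

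**Figure D4:**
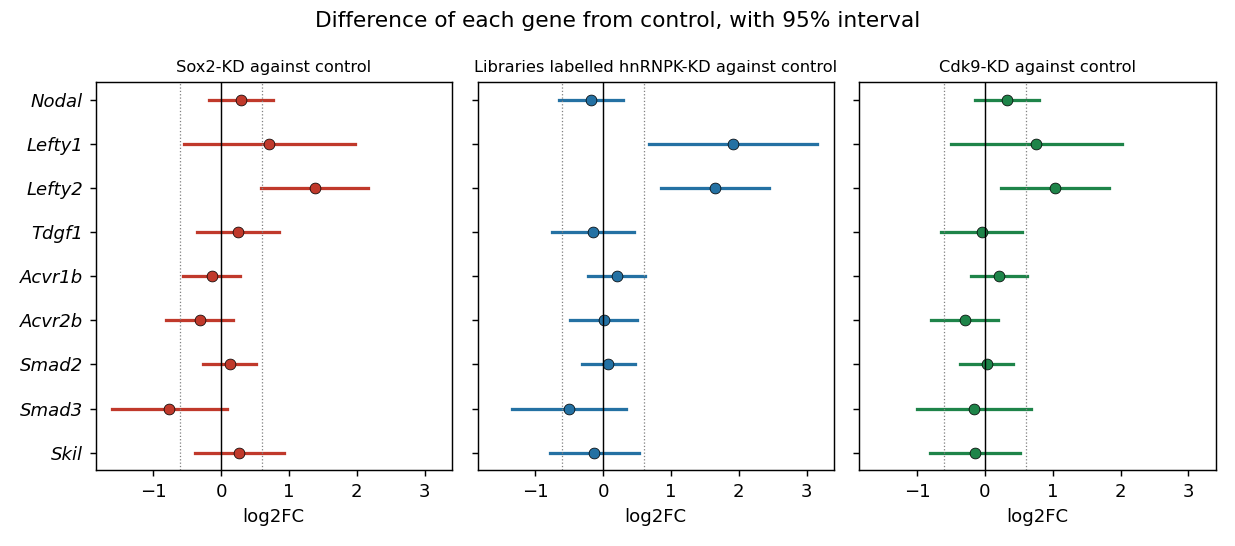
log2FC of the 9 genes (horizontal axis) in each knockdown against control, as points with 95% intervals from edgeR's quasi-likelihood fit, and dotted lines at an absolute log2FC of 0.6. The Lefty2 interval lies above 0 in all 3 panels (lowest bound 0.24) and the Lefty1 interval in the hnRNPK-KD-labelled libraries alone. The intervals of the other 7 genes include 0.

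The knockdowns were also compared with each other. The control libraries are not among the groups compared there, but the fit to all 8 libraries uses them for the p-values and intervals. None of the 9 genes was called in Sox2-KD against the hnRNPK-KD-labelled libraries (5.9% of all genes called), in Sox2-KD against Cdk9-KD (7.33%) or in Cdk9-KD against the hnRNPK-KD-labelled libraries (0%), with edgeR's quasi-likelihood test, DESeq2 or edgeR's exact test. At an unadjusted p under 0.05 there were 1 of 9 (Lefty1, against 21.3% of all genes), 0 of 9 (against 21.7%) and 1 of 9 (Nodal, against 5.71%). Lefty1 was lower in Sox2-KD than in the hnRNPK-KD-labelled libraries by a log2FC of -1.21 (95% interval -2.40 to -0.012, adjusted p = 0.229 from edgeR), which was -0.35 without replicate 2 of the latter. Nodal was higher in Cdk9-KD than in those libraries by a log2FC of 0.50 (95% interval 0.027 to 0.98, adjusted p = 0.841), and in Sox2-KD by 0.47 (95% interval -0.0020 to 0.95, adjusted p = 0.237). Without replicate 2 of the hnRNPK-KD-labelled libraries these Nodal values were 0.21 and 0.20.

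No difference in Lefty2 between knockdowns passed the test. Its log2FC was -0.27 in Sox2-KD against the hnRNPK-KD-labelled libraries (95% interval -1.04 to 0.49), 0.34 in Sox2-KD against Cdk9-KD (95% interval -0.43 to 1.12) and -0.62 in Cdk9-KD against the hnRNPK-KD-labelled libraries (95% interval -1.39 to 0.16). These intervals leave room for sizeable differences in at least 1 direction. Skil had a log2FC of 0.42 in Sox2-KD against Cdk9-KD (95% interval -0.24 to 1.07). It was 1.05 without Cdk9-KD replicate 2 and then passed the threshold (adjusted p = 0.0492), and -0.0090 without Cdk9-KD replicate 1.

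A further 40 genes of the pathway were examined by role, of which 30 passed the filter on low counts. The genes left out for low counts included the ligand genes Gdf1, Inhba and Inha, the receptor gene Acvr1c, the co-receptor gene Cfc1, the antagonist genes Fstl3 and Cer1, and the target genes Lhx1 and Foxa2. Gdf1 was at 0 counts in every library, and Inhba, Acvr1c and Cer1 had at most 1 count in any library. Whether Gdf1 or the other genes left out overlap another annotated gene was not tested. How reads in such an overlap were counted is not stated. The 0 counts of Gdf1 therefore do not show that it was not expressed. In Sox2-KD 3 of the 30 were called, 2 higher and 1 lower, beside 4.32% of all genes. None was called in the hnRNPK-KD-labelled libraries with edgeR's quasi-likelihood test, and 1 was called there with each of DESeq2 and edgeR's exact test. In Cdk9-KD 1 was called, higher, beside 0.139% of all genes. With the quasi-likelihood test, 11 of the 30 had an unadjusted p under 0.05 in Sox2-KD, where 19.3% of all genes did. The hnRNPK-KD-labelled libraries had 3 of 30 (8.03% of all genes) and Cdk9-KD 6 of 30 (10.4%). The median log2FC of the 30 was 0.050, 0.081 and -0.039 in the same order, near the medians of all genes given above.

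Among other ligands and convertases, 1 of 6 tested was called. Tgfb1, which encodes TGF-β1, was at 5.46 and 4.98 CPM in control and rose to 11.5 and 14.9 CPM in Sox2-KD (log2FC 1.34, standard error 0.30, adjusted p = 0.0359 from edgeR). In Cdk9-KD it was at 8.76 and 9.93 CPM (log2FC 0.84, adjusted p = 0.373) and in the hnRNPK-KD-labelled libraries at 8.68 and 4.95 CPM (log2FC 0.38, adjusted p = 0.828). The Sox2-KD call was lost when any 1 of the control or Sox2-KD libraries was left out (adjusted p from 0.0651 to 0.227) and without a filter on low counts (0.0512). Gdf3, a ligand gene of undifferentiated ESCs that acts through the same receptors, was at 111 and 118 CPM in control and at 89.1 and 88.9 CPM in Sox2-KD, a log2FC of -0.37 that did not pass the test (adjusted p = 0.178).

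Of the receptors and co-receptors (4 tested), the extracellular inhibitors (2 tested), the effectors and co-factors (5 tested) and the intracellular inhibitors (9 tested), none was called against control in any knockdown with edgeR's quasi-likelihood test on all 8 libraries. The effectors were the steadiest list in Sox2-KD: Smad4, Foxh1, Zfyve9, Trim33 and Drap1 had a median absolute log2FC of 0.076, beside 0.28 over all genes. The intracellular inhibitors held 4 of 9 genes with an unadjusted p under 0.05 in Sox2-KD (19.3% of all genes) and 3 of 9 in Cdk9-KD (10.4%). In Sox2-KD these were Pmepa1, Ski and Smurf1, which were higher, and Ldlrad4, which was lower. Ldlrad4 was at 3.15 and 5.04 CPM in control and 1.26 and 2.11 CPM in Sox2-KD (log2FC -1.28, adjusted p = 0.0915 from edgeR). Pmepa1, a feedback inhibitor that binds SMADs, was at 16.0 and 12.4 CPM in control and 28.2 and 30.0 CPM in Sox2-KD (log2FC 1.03, adjusted p = 0.167 from edgeR), and was called with only the 4 libraries compared (adjusted p = 0.0254). Smad7, the inhibitory SMAD gene, was at 109 and 123 CPM in control and 144 and 180 CPM in Sox2-KD. It was at 149 and 175 CPM in the hnRNPK-KD-labelled libraries and 277 and 138 CPM in Cdk9-KD. Each knockdown lay above both controls for Smad7, with a log2FC of 0.485, 0.487 and 0.845 in this order (adjusted p = 0.368, 0.708 and 0.317 from edgeR).

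The transcription factor genes known as Nodal targets in the primitive streak went both ways in Sox2-KD. Eomes, a T-box factor of primitive streak and trophoblast, was the gene with the largest log2FC of the 30 there and the only one called in more than 1 comparison with control. It had 3.83 and 2.58 CPM in control, 8.96 and 9.24 CPM in Sox2-KD, 8.09 and 7.91 CPM in the hnRNPK-KD-labelled libraries, and 19.4 and 14.2 CPM in Cdk9-KD. All 6 knockdown libraries lay above both controls. It rose in Sox2-KD (log2FC 1.50, standard error 0.28, adjusted p = 0.0166 from edgeR) and also in Cdk9-KD (log2FC 2.39, standard error 0.28, adjusted p = 0.0191), and had a log2FC of 1.32 in the hnRNPK-KD-labelled libraries (adjusted p = 0.304). In Sox2-KD the adjusted p was over 0.05 when any 1 of the control or Sox2-KD libraries was left out, from 0.0503 to 0.135, and in Cdk9-KD when either control library was left out (0.063 and 0.162).

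Gsc, a homeobox gene of the organizer, had the lowest log2FC of the 30 in Sox2-KD. It had 21 and 17 counts in control and 2 and 4 counts in Sox2-KD, a fall by 2.63 on the log2 scale (standard error 0.62, adjusted p = 0.0403 from edgeR). The call was lost with DESeq2 (adjusted p = 0.117), with a replicate block (0.0582) and when any 1 of these 4 libraries was left out, and the gene had 13 and 7 counts in the hnRNPK-KD-labelled libraries and 9 and 11 counts in Cdk9-KD, neither of which was called. Brachyury (T), another streak gene, was at 10.5 and 26.1 CPM in control and at 9.56 and 3.31 CPM in Sox2-KD (adjusted p = 0.136). Mixl1 had at most 25 counts in a library and was not called.

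**Figure D5:**
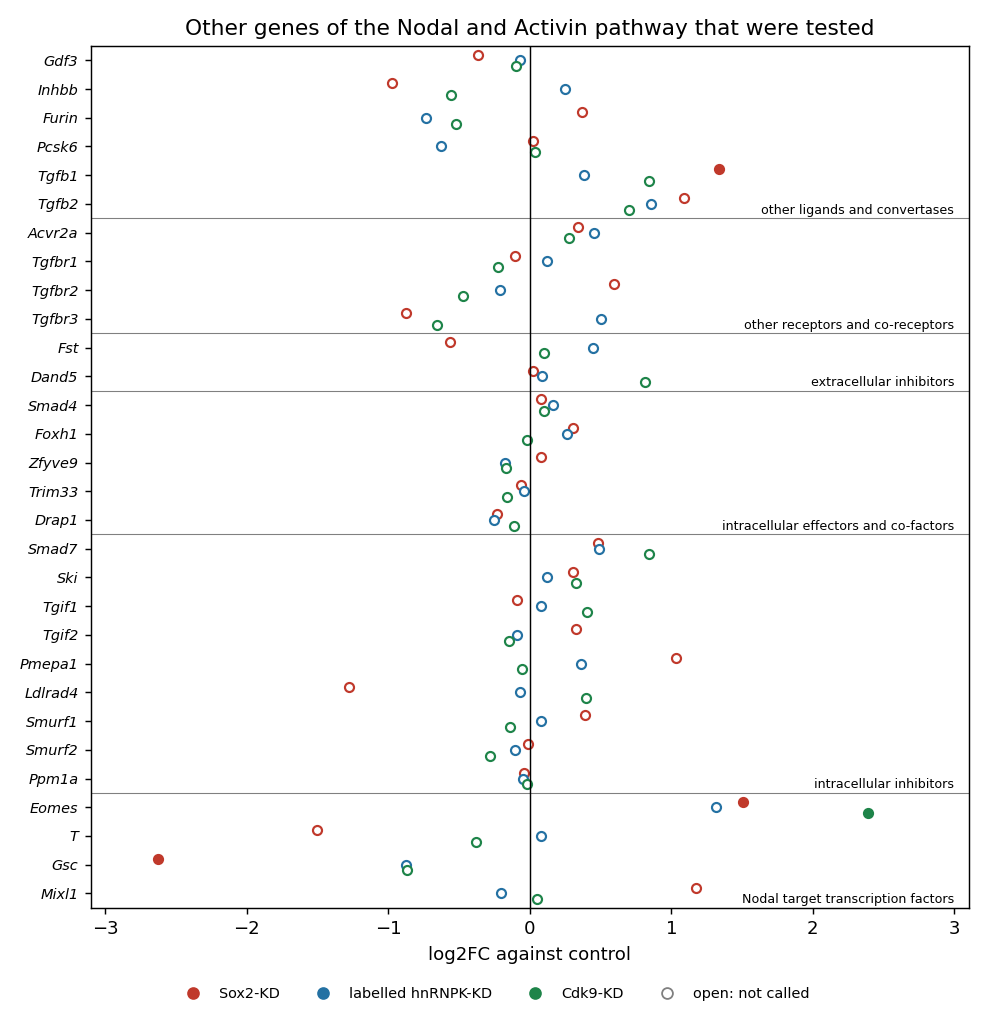
log2FC against control (horizontal axis) of the 30 tested pathway genes beyond the 9, grouped by role from ligands to target genes, with 1 point per knockdown and filled points for genes called. The filled points are Tgfb1 (1.34), Eomes (1.50) and Gsc (-2.63) for Sox2-KD, and Eomes (2.39) for Cdk9-KD.

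Some markers of other cell types were called in Sox2-KD as well, where 4.32% of all genes tested were called. The summed level of 10 primitive and visceral endoderm markers was 4.79 to 6.19 CPM in control, 44.4 to 64.7 CPM in Sox2-KD, 3.55 to 5.39 CPM in the hnRNPK-KD-labelled libraries and 5.50 to 7.07 CPM in Cdk9-KD. In Sox2-KD 2 of the 6 tested were called, Gata6 (4 and 5 counts in control, 49 and 68 in Sox2-KD) and Dab2 (12 and 15 counts in control, 637 and 950 in Sox2-KD), while Ttr was at 0 counts in both libraries. Dab2 alone made up most of the Sox2-KD sum, at 35.0 and 54.2 CPM, and Gata4 had 17 and 17 counts in control and 21 and 8 in Sox2-KD. The summed level of 10 trophectoderm markers was 143 to 155 CPM in control, 237 to 377 CPM in Sox2-KD, 142 to 168 CPM in the hnRNPK-KD-labelled libraries and 127 to 132 CPM in Cdk9-KD, and in Sox2-KD 4 of the 8 tested (Krt7, Krt8, Krt18 and Gata3) were called higher. Krt8 and Krt18 made up most of that sum, while Cdx2 was counted 351 and 613 times in control and 111 and 109 times in Sox2-KD (log2FC -2.15, adjusted p = 0.0521 from edgeR). Cdx2 was counted 346 and 1463 times in the hnRNPK-KD-labelled libraries, highest in replicate 2, the library that was also highest in Lefty1 and Lefty2. In Cdk9-KD 1 of the 8 trophectoderm markers tested, Tfap2c, was called lower, beside 0.139% of all genes. Tfap2c was at 43.4 and 43.0 CPM in control and 13.1 and 7.81 CPM in Cdk9-KD (log2FC -2.04, adjusted p = 0.0416 from edgeR). The summed level of 7 fibroblast markers stayed between 2.25 and 6.19 CPM in all libraries. In Sox2-KD 1 of the 4 tested, Lum, was called higher (0 and 1 counts in control, 23 and 13 in Sox2-KD). Col1a2 went the other way, from 32 and 24 counts in control to 4 and 1 in Sox2-KD (log2FC -3.44, adjusted p = 0.0565 from edgeR). Col1a1 and Thy1 overlapped with control there. The part of these markers and cell types in the Lefty, Tgfb1, Eomes and Gsc values was not tested.

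Across the 8 libraries, the genes whose log2 CPM followed each signalling gene most closely were ranked by Pearson's r over 9703 genes, as a description of 8 points in 4 groups. For Lefty2 these included Med12 (r = 0.954) and Setd1a (0.947), and for Lefty1 Cnpy1 (0.968), Akap8 (0.93) and Cgnl1 (0.928). For Nodal they were Sft2d2 (0.947), Itm2b (0.941) and Adamts7 (0.933). For Tdgf1 they were Ezh1 (0.954), Cotl1 (0.949) and its own pseudogene Tdgf1-ps1 (0.942), which shares sequence with it as described above.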

How the data were processed

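RNA-seq of polyA RNA from E14 ESCs was sequenced as 150-base read pairs. The authors trimmed reads with Trimmomatic, aligned them with STAR to mm10 with GENCODE vM23 and deposited raw gene counts, with neither normalization nor pooling; the submitters' processing notes name featureCounts 2.0.1. Strand setting and treatment of multi-mapping reads are not given in the sources used here.

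Groups and replicates came from the sample titles. Symbols, exon lengths and transcripts were taken from GENCODE vM21 (GRCm38), which matched 55154 of 55335 IDs. Low genes were removed with filterByExpr (minimum count 10 and total 15), and the rest were tested with edgeR 4.0.16 in R 4.3.3 (TMM, quasi-likelihood test, all 8 libraries in 1 fit, Benjamini-Hochberg over 16504 genes). The script was tested on simulated data. TMM factors lay between 0.968 and 1.05 and the biological coefficient of variation was 0.186. A standard error is the absolute log2FC over the square root of F. P-values rest on the spread between duplicates, estimated over all 4 groups together, and CPM of low genes carry counting error.

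The 9 genes and all lists were chosen with earlier results of these data known. Beyond the 9, pathway genes were named if called against control or if at either extreme of the Sox2-KD log2FC. Gdf3, Pmepa1, Ski, Smurf1, Ldlrad4, Smad7, T and Mixl1 were named after their values were seen. The genes most like Nodal, Lefty1, Lefty2 and Tdgf1 were sought among genes with an average log2 CPM over 3. Alternatives were DESeq2 1.42.0 (and its size factors in edgeR), edgeR's exact test, library totals, other filters, only the 4 libraries compared, a replicate block, adjusted p alone, and leaving out each library in turn. A few items are not reported here.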

Additional observations from a re-analysis of the deposited data

Results flagged for a closer look

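In the tests between knockdowns, 2 of the 30 pathway genes were called in Sox2-KD against the hnRNPK-KD-labelled libraries, where 5.9% of all genes were, and 1 of 30 in Sox2-KD against Cdk9-KD, where 7.33% were. Furin, the convertase that cleaves the Nodal precursor, was at 33.7 and 56.5 CPM in Sox2-KD and at 23.0 and 18.9 CPM in the hnRNPK-KD-labelled libraries (log2FC 1.10, standard error 0.28, adjusted p = 0.0415 from edgeR), and the call was lost in 5 of 17 alternatives, with adjusted p from 0.0507 without Cdk9-KD replicate 2 to 0.4 without Sox2-KD replicate 2 (0.23 without replicate 2 of the hnRNPK-KD-labelled libraries). Tgfbr3, the co-receptor betaglycan, was at 8.02 and 6.11 CPM in Sox2-KD and at 14.2 and 22.5 CPM in the hnRNPK-KD-labelled libraries (log2FC -1.37, standard error 0.30, adjusted p = 0.0256 from edgeR), with an adjusted p of 0.197 without replicate 2 of the latter and 0.224 without Sox2-KD replicate 2. Ldlrad4, an inhibitor of SMAD activation, was at 1.26 and 2.11 CPM in Sox2-KD and at 5.96 and 4.85 CPM in Cdk9-KD (log2FC -1.68, standard error 0.38, adjusted p = 0.0246 from edgeR). That call was lost when any 1 of the 4 libraries compared was left out, with adjusted p between 0.0583 and 0.13.

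Tgif2, a co-repressor gene of SMADs, lay above both controls in Sox2-KD (8.63 and 9.93 CPM against 7.26 and 7.50 CPM, log2FC 0.33) and below both in the hnRNPK-KD-labelled libraries (6.62 and 7.22 CPM, log2FC -0.093). This pattern was picked out by its opposite directions, without a test. The comparison of these knockdowns with each other gave a log2FC of 0.42 (adjusted p = 0.366 from edgeR).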

How the results depend on the processing

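Lefty2 was the only one of the 9 genes called under any alternative against control. In Sox2-KD the count of called genes rose from 0 to 1 (Lefty2) with library totals in place of TMM, with DESeq2, with edgeR's exact test, with only the 4 libraries compared, and without either library labelled hnRNPK-KD; leaving out 1 library gave 0 to 1. In the hnRNPK-KD-labelled libraries the count was 1 (Lefty2) with DESeq2 and with the exact test, and in Sox2-KD against Cdk9-KD it was 0 to 1 (Skil) as 1 library was left out. Where leaving out a library leaves 1 in a group, that library is assumed to vary like the other groups. The cause of these shifts was not tested.

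Called pathway genes numbered 3 in Sox2-KD, 2 to 4 under the other alternatives (4 with the exact test, which added Ldlrad4, and with only the 4 libraries, which added Pmepa1) and 0 to 3 as libraries were left out, and 1 in Cdk9-KD, then 0 to 1. In the hnRNPK-KD-labelled libraries they went from 0 to 1 (Eomes) with DESeq2 and with the exact test. In Sox2-KD against the hnRNPK-KD-labelled libraries they went from 2 to 4 with DESeq2 and with the exact test and to 1 without a filter, and were 0 to 4 as libraries were left out. In Sox2-KD against Cdk9-KD they went from 1 to 5 with DESeq2, 3 with the exact test and 2 with library totals or only the 4 libraries, and were 0 to 2 as libraries were left out. Over all genes, Sox2-KD calls went from 713 to 1279 with the exact test and were 144 to 840 as libraries were left out; calls in the hnRNPK-KD-labelled libraries went from 0 to 83 with DESeq2, 81 with the exact test and 1 without a filter, with 0 to 1 as libraries were left out; Cdk9-KD calls went from 23 to 222 with DESeq2 and 242 with the exact test, with 0 to 33 as libraries were left out. Between knockdowns, calls went from 974 to 1593 with the exact test in Sox2-KD against the hnRNPK-KD-labelled libraries. In Sox2-KD against Cdk9-KD they were 1210, and between 869 and 1781 over the alternatives other than leaving out a library. In Cdk9-KD against the hnRNPK-KD-labelled libraries they went from 0 to 56 with DESeq2 and 49 with the exact test. Each of these counts also changed as single libraries were left out.

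Signs turned for the following log2FC values, none of them called as reported. With other settings than leaving out a library, these were Acvr2b in the hnRNPK-KD-labelled libraries (-0.0010 with DESeq2 and with its size factors in edgeR, -0.027 with library totals, -0.0090 with at least 10 counts in every library, -0.010 with only the 4 libraries), Nodal (0.042) and Lefty1 (0.031) in Sox2-KD against Cdk9-KD with library totals, and Skil in Cdk9-KD against the hnRNPK-KD-labelled libraries (0.0040 with library totals). Leaving out 1 library gave Tdgf1 -0.13 to 0.74 in Sox2-KD. In the hnRNPK-KD-labelled libraries it gave Nodal -0.53 to 0.079, Tdgf1 -0.54 to 0.33, Acvr1b -0.048 to 0.39, Acvr2b -0.19 to 0.20, Skil -0.35 to 0.081 and Tgfb1 -0.088 to 0.71. In Cdk9-KD it gave Tdgf1 -0.46 to 0.42, Acvr1b -0.0020 to 0.36, Smad2 -0.28 to 0.24, Smad3 -0.50 to 0.090 and Skil -0.79 to 0.26. Between knockdowns it gave Lefty2 -0.78 to 0.53 in Sox2-KD and -1.15 to 0.16 in Cdk9-KD, each against the hnRNPK-KD-labelled libraries, Skil -0.66 to 0.41 in the latter, and Nodal -0.19 to 0.16, Lefty1 -0.32 to 0.19 and Skil -0.0090 to 1.05 in Sox2-KD against Cdk9-KD.

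Whether replicates of the same number were prepared together is not given in the sources used here. The deviations of same-numbered libraries from their group means correlated between -0.223 and 0.21 over the 6 pairs of groups. With 2 replicates a group, these values cannot settle that question. With a replicate block, 695 genes were called in Sox2-KD in place of 713 and 15 in Cdk9-KD in place of 23, none of the 9 genes was called against control, and 2 pathway genes were called in Sox2-KD in place of 3, since Gsc was lost. Lefty1, with as few as 15 counts in a library, and Gsc, with as few as 2, are limited by depth.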
